A study of Rattus norvegicus with 30 samples.

Results

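Gene expression in repaired rat plantaris tendons was compared between 3 animals treated with the high dose of an HPGDS inhibitor and 5 animals treated with vehicle, all collected 7 days after surgery. The comparison holds every tendon labelled 7 days at 6 mg/kg or 0 mg/kg of GSK2894631A, which is 8 of the 30 tendons analysed. The labels give 3 tendons at 6 mg/kg, where the removal of low-quality samples described in the study's methods would leave 1 more, which was not analysed here. All 12558 genes that passed a filter on low expression were tested, and skeletal muscle genes were then counted apart from the rest. The animals were 3-month-old male Sprague Dawley rats that underwent a tenotomy of both plantaris tendons with immediate suture repair, and dosing by oral gavage 2 times daily started after surgery. The 7D 0 mg/kg group received the vehicle alone, and the 7D 6 mg/kg group received the inhibitor at 6 mg/kg in the same vehicle, so both groups were injured, repaired and handled alike. RNA was taken from the right tendon, which was cut between the muscle-tendon junction and the heel bone. The other tendons, used below only where named, were 4 of the 7D 2 mg/kg group, 15 collected at 21 days and 3 uninjured controls.

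Prostaglandin D2 is a lipid mediator made from arachidonic acid. Phospholipases release the fatty acid, the cyclooxygenases Ptgs1 and Ptgs2 convert it to prostaglandin H2, and hematopoietic prostaglandin D synthase (HPGDS, gene Hpgds), a member of the glutathione transferase superfamily, turns that into prostaglandin D2 in mast cells, macrophages and some lymphocytes. A plantaris tendon runs directly into muscle fibres at its upper end, and muscle fibres hold very large amounts of a few messenger RNAs for the contractile filaments, for calcium release and for energy supply, so that a small number of fibres in a tendon sample can be seen in its RNA.

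Total counts were 31527157 to 38449256 in the 5 tendons of the 7D 0 mg/kg group. They were 12405741 to 49909374 in the 3 tendons of the 7D 6 mg/kg group, where replicate 4 had the lowest total and so gives the least precise values for low genes. The labels name each tendon as a separate sample, and the study's methods describe separate rats. Tendon fibroblast markers were present in every tendon, with Col1a1, the main chain of fibrillar collagen, at 40536 ± 10726 CPM (counts scaled to library size and composition, mean ± SD, n = 5) without the inhibitor and 35049 ± 4902 CPM (n = 3) with it. Tnmd, a membrane protein of mature tendon cells, was found at 85.3 ± 42.7 and 102 ± 51.1 CPM. In bulk tissue, fewer cells of a type and less RNA per cell cannot be told apart.

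The main difference between the doses was a near absence of skeletal muscle transcripts from the 7D 6 mg/kg tendons. Compared to 7D 0 mg/kg tendons, 49 genes were lower in 7D 6 mg/kg tendons and 0 genes were higher at an FDR-adjusted p under 0.05 (edgeR quasi-likelihood test), which is 0.390% and 0% of the genes tested. Of the 49 genes, 40 were on a list of 234 skeletal muscle genes, 205 of which could be tested. So 19.5% of the muscle genes tested were called lower. At an unadjusted p under 0.05, 564 genes were lower (4.49%) and 182 were higher (1.45%), and 148 of the lower genes were on the muscle list. The median log2 fold change was -4.03 over the muscle list and -0.01 over all genes tested, and 202 of the 205 muscle genes were below 0. The tendons of the 2 groups did not overlap for 145 muscle genes, all lower at 6 mg/kg, beside 683 lower genes (5.44%) and 323 higher genes (2.57%) among all genes. Every call was lost when any single 6 mg/kg tendon was left out, with 0 genes called without replicate 1, without replicate 4 or without replicate 5, while the median of the muscle list stayed between -4.15 and -3.97. With the muscle share of each tendon as a covariate in the fit, that median was -1.13, and 100 genes were called lower and 38 higher. The share is computed from these same genes, so a smaller median is built in and cannot separate muscle content from dose.

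**Figure D1:**
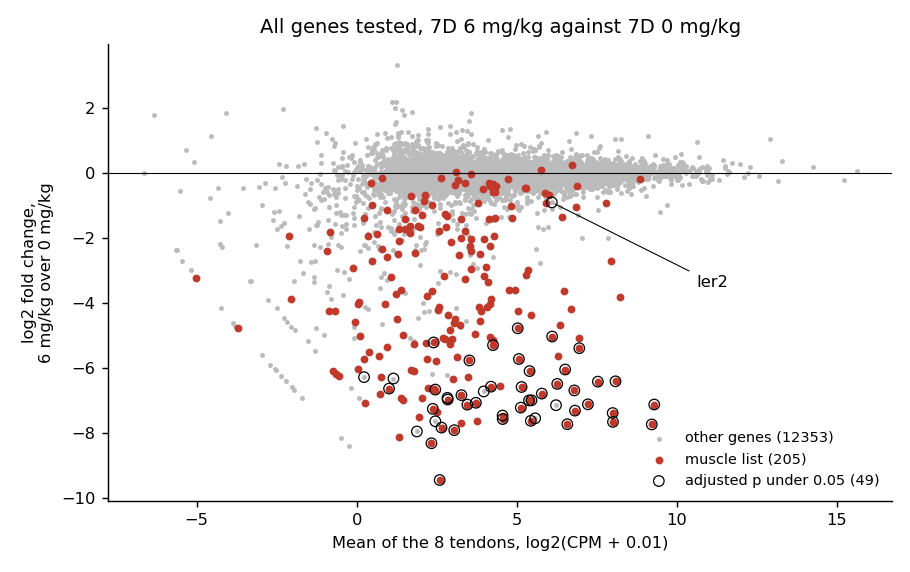
Log2 fold change of 7D 6 mg/kg over 7D 0 mg/kg tendons (vertical axis) against the mean level of the 8 tendons in log2(CPM + 0.01) (horizontal axis) for the 12558 genes tested. Grey points are the 12353 genes outside the muscle list, red points the 205 muscle genes, and rings the 49 genes at an adjusted p under 0.05. All rings lie below 0, and the labelled gene Ier2 is the one ring close to the grey cloud.

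The genes of the muscle list together took 1.09, 2.02, 0.475, 1.60 and 0.510% of the counts in 7D 0 mg/kg replicates 1 to 5, and 0.176, 0.193 and 0.188% in the 7D 6 mg/kg tendons. The groups did not overlap, and the 6 mg/kg tendons were all close to each other while the vehicle tendons were spread widely. The 4 tendons of the 7D 2 mg/kg group had 0.171 to 0.219%. Uninjured control tendons had 27.7 to 37.0%, so the vehicle tendons at 7 days already held far less muscle RNA than uninjured tendons. At 21 days, the share was 0.263 to 11.4% at 0 mg/kg and 0.698 to 14.1% at 6 mg/kg, and these groups overlapped. At 7D 6 mg/kg, energy and oxygen genes had 552 to 656 CPM together and other muscle-enriched genes 387 to 425 CPM. Thick filament genes had 46.7 to 65.7 CPM there, beside 781 to 4770 CPM at 7D 0 mg/kg. The low, even share at 6 mg/kg thus rests mainly on members outside the filaments, and the part from fibres was not tested. How much muscle each sample held is not given in the sources used here, and differences in dissection and differences in the tissue cannot be told apart.

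**Figure D2:**
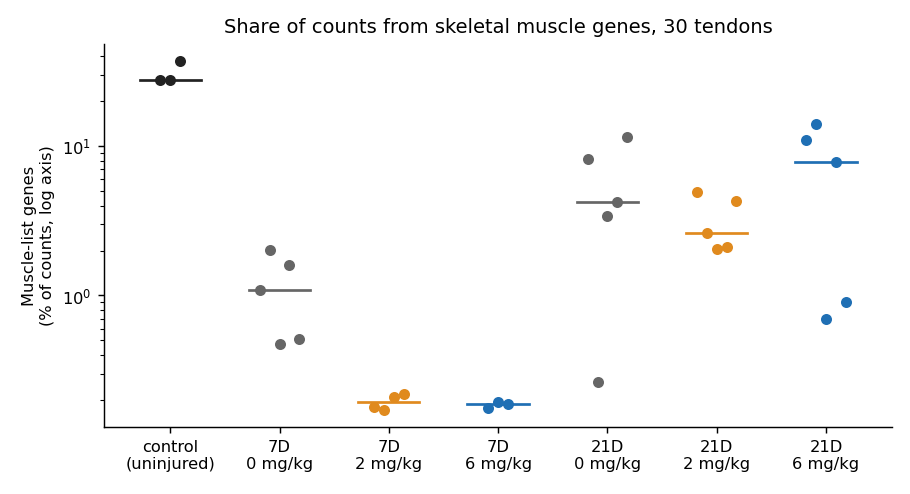
Share of counts on muscle-list genes in each of the 30 tendons, as a percentage on a log axis, by group. Points are tendons and bars are group medians. The 3 tendons at 6 mg/kg and the 4 at 2 mg/kg collected at 7 days lie together below all 5 vehicle tendons of that day, while the groups of 21 days overlap.

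Genes of the thick filament, which forms the myosin motor of the fibre, had the lowest median of the 8 role groups (-5.67), and 7 of 19 tested were called lower. Myh4, the myosin heavy chain of the fastest fibres, was at 749, 1722, 387, 1633 and 254 CPM in the vehicle tendons and at 4.25, 5.75 and 3.47 CPM in the 6 mg/kg tendons, a log2 fold change of -7.73 (SE 1.41, adjusted p = 0.0173, edgeR). The lowest vehicle tendon was still far above the highest 6 mg/kg tendon. Its level in uninjured control tendons was 51579 ± 2512 CPM (n = 3). Myl1, an alkali light chain of fast myosin, fell with it, from 407 ± 305 CPM (n = 5) to 2.45 ± 0.58 CPM (n = 3, adjusted p = 0.0173, edgeR).

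In the thin filament, the actin track with its calcium switch, 8 of 17 genes tested were called lower and the median was -4.83. Tnnc2, the calcium-binding troponin subunit of fast fibres, was at 241, 484, 58.2, 320 and 86.6 CPM at 0 mg/kg and at 1.93, 1.82 and 1.40 CPM at 6 mg/kg (log2 fold change -7.11, SE 1.37, adjusted p = 0.0173, edgeR). Nrap, a scaffold of growing myofibrils, was at 111, 88.6, 42.4, 74.1 and 16.6 CPM and at 0.67, 0.76 and 0.18 CPM. Neither gene had overlapping groups. Acta1, the actin of skeletal muscle, fell from 999 ± 838 to 7.23 ± 2.42 CPM (adjusted p = 0.0206, edgeR).

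Among Z-disc and costamere genes, which anchor the filaments to each other and to the membrane, 6 of 35 were called and the median was -3.71. Csrp3, a mechanosensing LIM protein of the Z-disc, was at 19.3, 33.1, 14, 21.5 and 17.3 CPM at 0 mg/kg and at 0.24, 0.08 and 0.06 CPM at 6 mg/kg. It was the most even of the named muscle genes over the vehicle tendons that had more than 5 counts in total at 6 mg/kg, with an SD of 7.30 around a mean of 21.0 CPM. Ankrd23, a stretch-responsive ankyrin repeat protein bound to titin, had a log2 fold change of -6.09 (SE 1.15, adjusted p = 0.0173, edgeR).

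Of the genes for calcium release and uptake, 6 of 21 were called lower, with a median of -4.35. Trdn, which links the calcium release channel to its store, was at 87.1, 129, 21.4, 87.1 and 21.0 CPM at 0 mg/kg and at 0.28, 0.83 and 0.15 CPM at 6 mg/kg. Ryr1, the release channel itself, was also called (log2 fold change -6.49, SE 1.24, adjusted p = 0.0173, edgeR), as was Cacna1s, the voltage sensor that opens it (adjusted p = 0.0240, edgeR). Sln, a small inhibitor of the calcium pump, had 2 counts in all 6 mg/kg tendons together, and its vehicle mean was 400-fold that level with a counting interval of 111 to 3299.

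Energy and oxygen genes had 5 of 28 called and a median of -3.76. Ckm, the creatine kinase that buffers ATP in fibres, was at 292, 893, 112, 577 and 173 CPM at 0 mg/kg and at 1.27, 3.41 and 1.64 CPM at 6 mg/kg (log2 fold change -7.65, SE 1.49, adjusted p = 0.0173, edgeR). Mb, the oxygen store myoglobin, fell from 177 ± 148 to 1.77 ± 0.70 CPM. Ampd1, an enzyme of the purine cycle, and Cox6a2, a subunit of cytochrome oxidase found in heart and skeletal muscle, fell to 0.16 ± 0.16 and 0.22 ± 0.11 CPM from 37.6 ± 18.0 and 37.5 ± 24.8 CPM.

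Genes of the fibre membrane and the nerve contact had a smaller median (-2.84), and 2 of 20 were called. They were Chrnd, a subunit of the acetylcholine receptor, and Art1, an ADP-ribosyltransferase on the fibre surface. Chrnd had 3 counts over the 6 mg/kg tendons together, and its vehicle mean of 3.20 ± 1.39 CPM was 106-fold that level, with a counting interval of 36.3 to 514. The remaining muscle-enriched genes had 4 of 49 called and a median of -2.69, with Eef1a2, the elongation factor of fibres and neurons, at 72.9, 99.0, 25.2, 65.0 and 20.1 CPM against 0.52, 0.91 and 0.46 CPM.

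Few genes of muscle formation passed the test. Of 16 myogenic factors and embryonic isoforms tested, 2 were called lower and the median was -3.90. Myf6, a regulator kept on in mature fibres, was at 11, 15.2, 4.95, 5.68 and 4.47 CPM at 0 mg/kg and at 0.06, 0.08 and 0.03 CPM at 6 mg/kg. Igfn1, a Z-disc protein, was at 9.63 ± 6.30 CPM in vehicle tendons and at 0.64 ± 0.81 CPM (n = 3) in uninjured controls, and the 6 mg/kg tendons had 1 count in all. Myod1 and Myog, which drive satellite cells into muscle, had log2 fold changes of -6.27 and -4.02 and did not pass the adjustment (adjusted p = 0.121 and 0.102, edgeR). Myod1 was at 4.33, 5.62, 0.70, 1.48 and 1.09 CPM at 0 mg/kg, and its 6 mg/kg tendons had 0.04, 0.08 and 0 CPM.

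**Figure D3:**
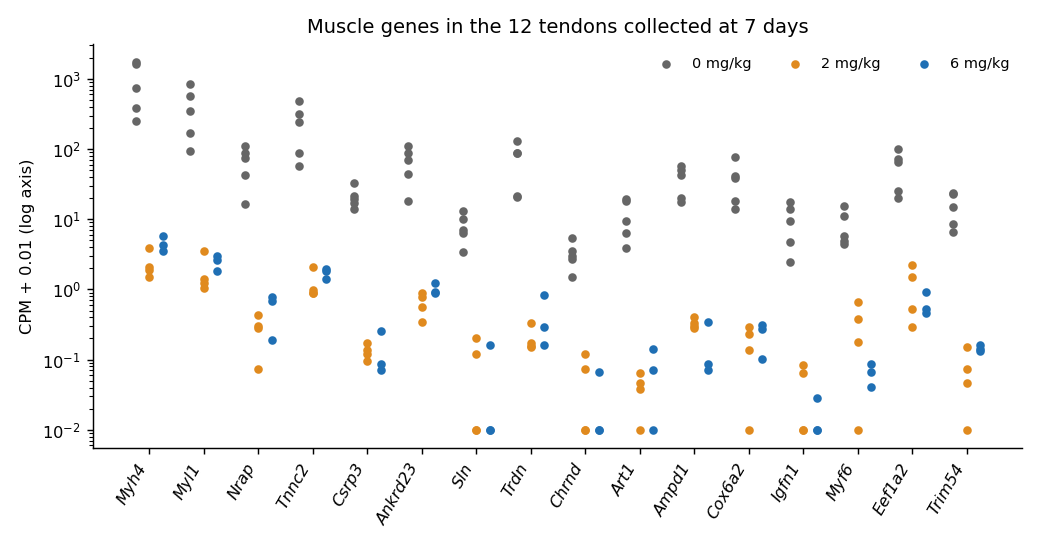
CPM + 0.01 on a log axis in the 12 tendons of day 7 for the 2 genes of smallest p in each of the 8 muscle role groups, in grey at 0 mg/kg, orange at 2 mg/kg and blue at 6 mg/kg. Each point is a tendon. For all 16 genes the blue and orange points lie below every grey point.

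Not every gene of the list fell that far. A log2 fold change of -5 or lower was found for 79 of the 205 genes, 30 lay between -1 and 0, and 3 were above 0. None of the 3 passed the test. Slc25a4, the ADP/ATP carrier of mitochondria, had the highest level of the list in the 6 mg/kg tendons, at 429 ± 61.5 CPM against 482 ± 64.4 CPM in the vehicle group (log2 fold change -0.17). In the 6 mg/kg tendons, 25 genes of the list had no count above 3 in any tendon, and 2 of these, Asb18 and Sbk2, were at 0 in all of them. Sbk2 also had no count above 3 in any vehicle tendon, so its 0 is no measure of a fall. Of the 234 genes, 207 were listed in the count table and 205 passed the filter on low expression.

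Promoters of the called muscle genes were searched for the motifs of muscle regulators. In the 250 bases before the start of transcription, taken from RefSeq (GRCr8), an E-box with the core CAGCTG was found for 31.2% of the 32 called muscle genes matched, and for 11.9% of the 27457 symbols in the table. A MEF2 site was found for 34.4% of the called muscle genes and 3.07% of all symbols. Over the 156 tested muscle genes matched, called or not, the shares were 31.4% for the E-box and 18.6% for the MEF2 site. The E-box share was thus that of the muscle list as a whole. Motifs were searched on both strands. The E-boxes of Ckm and the MEF2 site of Myh4, a named gene of the thick filament, are shown in capitals, as these are the binding motifs of the MyoD family and of the MEF2 factors. The Ckm sequence lies at chr1:88189211-88189460 on the plus strand and that of Myh4 at chr10:52421898-52422147 on the plus strand.
Ckm: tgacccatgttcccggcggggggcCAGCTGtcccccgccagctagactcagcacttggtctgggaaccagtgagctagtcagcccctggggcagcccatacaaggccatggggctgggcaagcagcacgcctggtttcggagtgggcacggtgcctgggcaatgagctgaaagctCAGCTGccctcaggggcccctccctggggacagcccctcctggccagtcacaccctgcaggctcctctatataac
Myh4: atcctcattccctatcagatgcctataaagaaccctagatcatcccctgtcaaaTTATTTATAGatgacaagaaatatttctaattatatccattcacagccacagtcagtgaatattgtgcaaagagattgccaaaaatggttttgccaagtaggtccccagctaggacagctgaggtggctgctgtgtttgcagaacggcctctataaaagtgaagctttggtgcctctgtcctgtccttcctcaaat
A match is a description of the letters and not of binding.

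Outside the muscle list, 9 of 12353 genes were called lower and 0 were called higher. The median log2 fold change of these genes was 0.00, with an interquartile range of -0.14 to 0.11. Of the 9 genes, 8 followed the muscle share closely across the 15 tendons of day 21, whose levels do not enter the fold change but share the estimate of the spread, with a Pearson correlation of at least 0.8 between the gene and the share. They were AABR07052585.2, LOC298139, AABR07030443.2, AABR07005775.1, Kcnc4, RGD1304963, Art5 and RGD1564899. Kcnc4, a voltage-gated potassium channel, was at 11, 13.4, 2.13, 14 and 3.20 CPM at 0 mg/kg, and its 3 tendons at 6 mg/kg had 4 counts in total. Art5, a relative of Art1, also had 4 counts. The limits on the correlation were set after the values were seen. Of the muscle genes, 185 of 205 reached the same correlation, with a median of 0.972. Among the other genes, 722 reached 0.8, and of these 91 (12.6%) were lower and 0 higher at an unadjusted p under 0.05. Over all genes tested, 5.94% passed that limit in either direction. Of the 10324 genes with a correlation under 0.5, 293 were lower and 175 higher (4.53% together), with a median log2 fold change of 0.01.

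The one called gene that did not follow muscle was Ier2, an immediate early gene on chromosome 19 that codes for a nuclear protein induced within minutes of a stimulus. It was at 90.5, 75.5, 76.0, 82.3 and 89.3 CPM in the vehicle tendons and at 44.7, 44.1 and 44.4 CPM in the 6 mg/kg tendons, a log2 fold change of -0.90 (SE 0.18, adjusted p = 0.0216, edgeR). The groups did not overlap, and the 6 mg/kg tendons differed from each other by less than 1 CPM. The lowest of these tendons in counts had 583, so that closeness is finer than counting error and is no measure of spread. The 7D 2 mg/kg tendons were at 79.1, 82.4, 81.4 and 60.7 CPM. The direct comparison of 6 with 2 mg/kg gave -0.77, with a 95% interval of -1.16 to -0.39 that does not include 0, and did not pass the adjustment over all genes (adjusted p = 0.182, edgeR). The annotation of the files lists this gene as a pseudogene, and reads shared with a copy of it were not tested for. The call was lost when the muscle genes were taken out before the fit (adjusted p = 0.149, edgeR). It was also lost without any one of the 6 mg/kg tendons, while its log2 fold change stayed between -0.95 and -0.86 under every setting tried.

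All immediate early genes tested had a value below 0, though only Ier2 was called. These are transcription factors and feedback regulators that cells switch on for a short time after growth factors, stretch, stress or handling of the tissue. Of 22 tested, all 22 had a log2 fold change below 0, 1 was called, 10 (45.5%) had an unadjusted p under 0.05 beside 4.49% of all genes lower, and 7 (31.8%) had groups that did not overlap beside 5.44%. The median was -0.64. Genes of this kind are known to be induced together, so they are not independent of each other. With any one of the 8 tendons left out, all 22 stayed below 0 and 4 to 11 had an unadjusted p under 0.05. Nr4a1, an orphan nuclear receptor, was at 94.3, 57.2, 33.2, 40.5 and 116 CPM at 0 mg/kg and at 23.9, 20.4 and 21.0 CPM at 6 mg/kg (log2 fold change -1.65, SE 0.49, adjusted p = 0.231, edgeR). Unlike Ier2, it was also low at 2 mg/kg, at 42.0, 27.9, 38.0 and 14.6 CPM, and uninjured controls had 317 ± 90.6 CPM (n = 3). Its relatives Nr4a2 and Nr4a3 had means of 14.9 and 2.79 CPM at 2 mg/kg, below their 17.5 and 3.89 CPM at 6 mg/kg. Egr1, a zinc finger factor that also acts in tendon cells, was at 176, 172, 75.2, 220 and 133 CPM and at 68.2, 77.0 and 46.4 CPM (log2 fold change -1.28, adjusted p = 0.489, edgeR). Its groups overlapped through 1 vehicle tendon, replicate 3.

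The AP-1 subunits ranged in log2 fold change from -1.43 for Fosb, through -1.05 for Fos, to -0.47 for Jun, and none was called. Junb was at 207, 200, 185, 217 and 247 CPM at 0 mg/kg and at 135, 124 and 126 CPM at 6 mg/kg (log2 fold change -0.72). Jun was at 149 to 229 CPM with a median of 181 and at 139, 130 and 122 CPM. For both genes every 6 mg/kg tendon was below every vehicle tendon, while for Jund, Fosl1 and Fos the groups overlapped. Zfp36, which speeds the decay of cytokine messages, was at 135, 111, 101, 115 and 130 CPM at 0 mg/kg and at 82.7, 62.8 and 74.0 CPM at 6 mg/kg (log2 fold change -0.69, adjusted p = 0.735, edgeR). Btg2, Fosb and Nr4a1 also had groups that did not overlap.

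**Figure D4:**
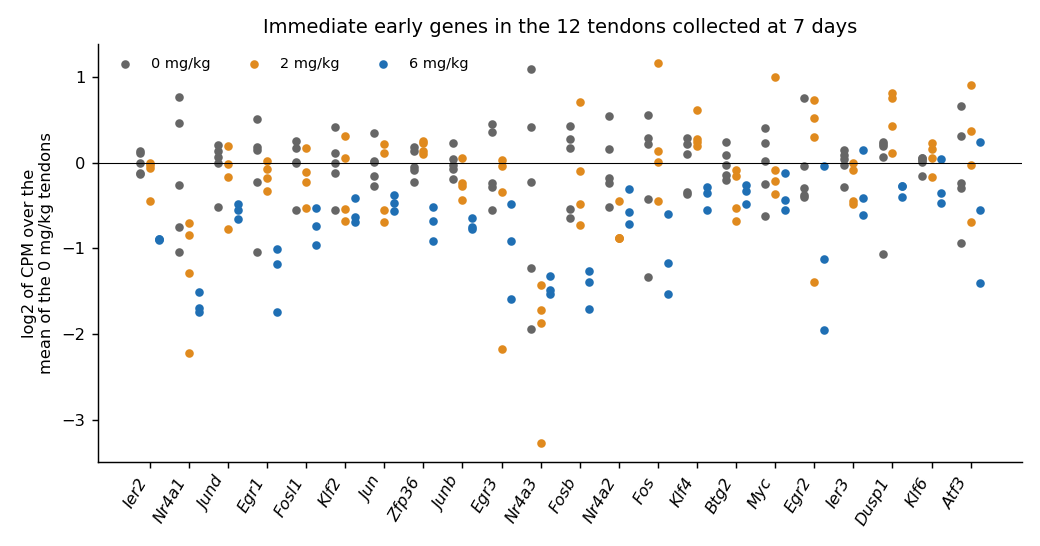
Log2 of the CPM of each of the 12 tendons of day 7 over the mean of the 5 vehicle tendons, for the 22 immediate early genes in order of their p, with grey for 0 mg/kg, orange for 2 mg/kg and blue for 6 mg/kg. Each point is a tendon. Blue points lie mostly below 0, and for Ier2, Junb, Zfp36 and Fosb they lie below every grey and orange point.

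Promoters of immediate early genes are known for serum response elements, read as a CArG box, and cAMP response elements with the letters TGACGTCA. In the same 250 bases, each was found for 4 of the 14 immediate early genes matched (28.6%), beside 1.5% and 1.7% of all symbols. The Ier2 promoter with its cAMP response element in capitals (chr19:40399123-40399372, plus strand) and the Zfp36 promoter with its CArG box in capitals (chr1:92799109-92799358, minus strand) are given because Ier2 carries the call and Zfp36 separated the doses in the same way.
Ier2: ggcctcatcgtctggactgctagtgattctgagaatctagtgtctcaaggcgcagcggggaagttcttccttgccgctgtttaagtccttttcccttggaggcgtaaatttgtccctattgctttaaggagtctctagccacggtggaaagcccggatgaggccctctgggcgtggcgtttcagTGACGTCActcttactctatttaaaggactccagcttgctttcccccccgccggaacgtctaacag
Zfp36: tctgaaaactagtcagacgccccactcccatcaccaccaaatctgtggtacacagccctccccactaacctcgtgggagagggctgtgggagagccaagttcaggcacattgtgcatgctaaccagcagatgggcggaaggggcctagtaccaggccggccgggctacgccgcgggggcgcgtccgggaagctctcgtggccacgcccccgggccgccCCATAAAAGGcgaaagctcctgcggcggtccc
Immediate early genes had spans of 1517 to 57099 bases, and 9 of the 22 were in the shortest decile of the genes outside the muscle list (spans up to 3538 bases), which had a median log2 fold change of -0.05 and 6.32% of genes lower at an unadjusted p under 0.05. The part of gene length in the difference was not tested.

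No gene tested of the prostanoid pathway was called, the target enzyme included. Hpgds was at 2.00, 0.82, 1.04, 1.77 and 1.79 CPM at 0 mg/kg and at 2.64, 1.82 and 3.10 CPM at 6 mg/kg, a log2 fold change of 0.78 with a 95% interval of -0.27 to 1.82 (adjusted p = 0.963, edgeR). The groups overlapped. This is the level of the message, and enzyme activity was not measured in these data. Of 19 genes of prostanoid synthesis and breakdown tested, 0 were called and the median was 0.04. Ptgds, the lipocalin-type prostaglandin D synthase, and Ptgis were not listed among the counted genes and could not be tested. Ptgs2, the inducible cyclooxygenase, was at 17.8 to 37.0 CPM with a median of 23.1 at 0 mg/kg and at 18.0, 24.3 and 8.21 CPM at 6 mg/kg. Ptgs1, the constitutive form, had a log2 fold change of -0.12, and Ptges, which makes prostaglandin E2 from the same substrate, had -0.01. Pla2g2a, a secreted phospholipase, was at 23.2 to 955 CPM in the vehicle tendons and at 316, 179 and 372 CPM at 6 mg/kg.

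Of the prostanoid receptors, 6 were tested, 0 were called and the median was -0.20. The prostaglandin D2 receptors, Ptgdr and Ptgdr2, were not listed among the counted genes and could not be tested. Those tested ranged from Ptger2, a receptor for prostaglandin E2, at -0.40 to Ptger3, another of its receptors, at 0.61. Ptgfr, the receptor for prostaglandin F2 alpha, was at 17.8 to 25.5 CPM with a median of 20.3 at 0 mg/kg and at 23.1, 22.4 and 41.5 CPM at 6 mg/kg. The leukotriene pathway, which starts from the same fatty acid, had 0 of 7 called and a median of 0.08. Glutathione transferases, the relatives of HPGDS, had 0 of 14 called and a median of 0.18, with Gstt3 at 4.17, 9.95, 3.94, 10.5 and 4.07 CPM in the vehicle group and at 26.5, 24.0 and 8.76 CPM at 6 mg/kg (adjusted p = 0.612, edgeR).

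Cell type markers other than those of muscle gave no call. Macrophage markers together had 830 to 2160 CPM at 0 mg/kg and 1480 to 2170 CPM at 6 mg/kg, and all 6 had a log2 fold change above 0, with a median of 0.44. Mast cell markers, of a cell type known for HPGDS, had 68.7 to 152 CPM and 103 to 152 CPM. Neutrophil markers had a median of 0.02, T cell markers 0.40 and endothelial markers -0.07. The 5 adipocyte markers were all above 0 with a median of 0.85, and Adipoq, the hormone adiponectin, was at 718, 216 and 265 CPM at 6 mg/kg against 78.5 to 283 CPM, median 213 CPM, at 0 mg/kg, so that replicate 1 alone lay outside the vehicle range. Krt5 and Krt14 of epidermis had at most 3 counts in each of the 8 tendons.

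Among matrix and tissue repair genes, 0 were called. The collagens had a median of -0.21 over 18 genes. Col5a3, a minor chain of fibrillar collagen V, was at 485, 1167, 1178, 818 and 1404 CPM at 0 mg/kg and at 619, 443 and 483 CPM at 6 mg/kg (log2 fold change -0.97, adjusted p = 0.531, edgeR), and its groups overlapped. Col3a1, abundant in early scar, differed little, with 49571 ± 4588 and 51585 ± 2683 CPM. Proteoglycans and matricellular proteins (median 0.06 over 23 genes), matrix proteases and inhibitors (0.04 over 21), cell cycle genes (-0.07 over 28), the nuclear respiratory chain (-0.04 over 24), the oxidant response (0.04 over 17) and the circadian clock (-0.01 over 16) were near 0. Tendon transcription factors had a median of -0.78 over 11 genes, 10 of them below 0, with 0 called. The member above 0 was Mkx, at 0.33 ± 0.18 and 0.81 ± 0.33 CPM (log2 fold change 1.25, adjusted p = 0.850, edgeR). At an unadjusted p under 0.05, 4 were lower (Eya1, Egr1, Six2 and Sox9), beside 4.49% of all genes. Of these, 3, all but Egr1, had groups that did not overlap, beside 5.44% of all genes. Eya1 had a mean of only 0.48 CPM at 0 mg/kg. It followed the muscle share over the day 21 tendons with a correlation of 0.965. Sox9, a factor of cartilage and of the tendon attachment, was at 6.69 to 9.88 CPM with a median of 6.96 at 0 mg/kg and at 5.11, 4.62 and 3.68 CPM at 6 mg/kg (log2 fold change -0.77, adjusted p = 0.647, edgeR). The list shares Egr1 and Egr2 with the immediate early genes. Scx, which specifies tendon cells, had a log2 fold change of -0.39 (adjusted p = 0.998, edgeR).

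Cytokines and chemokines had a median of -0.40 over 34 genes, interferon response genes -0.40 over 22, and 0 of either were called. The 2 members with an unadjusted p under 0.05, Cxcl10 and Cxcl11, were high in 1 vehicle tendon. Cxcl10, a chemokine induced by interferon, was at 124 CPM in 7D 0 mg/kg replicate 3 and at 3.19 to 4.74 CPM in the other vehicle tendons, beside 5.15, 1.82 and 6.81 CPM at 6 mg/kg. Il6 had a log2 fold change of -1.72 (11.8 ± 11.9 against 3.55 ± 2.20 CPM), and Tgfb1 of -0.37.

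**Figure D5:**
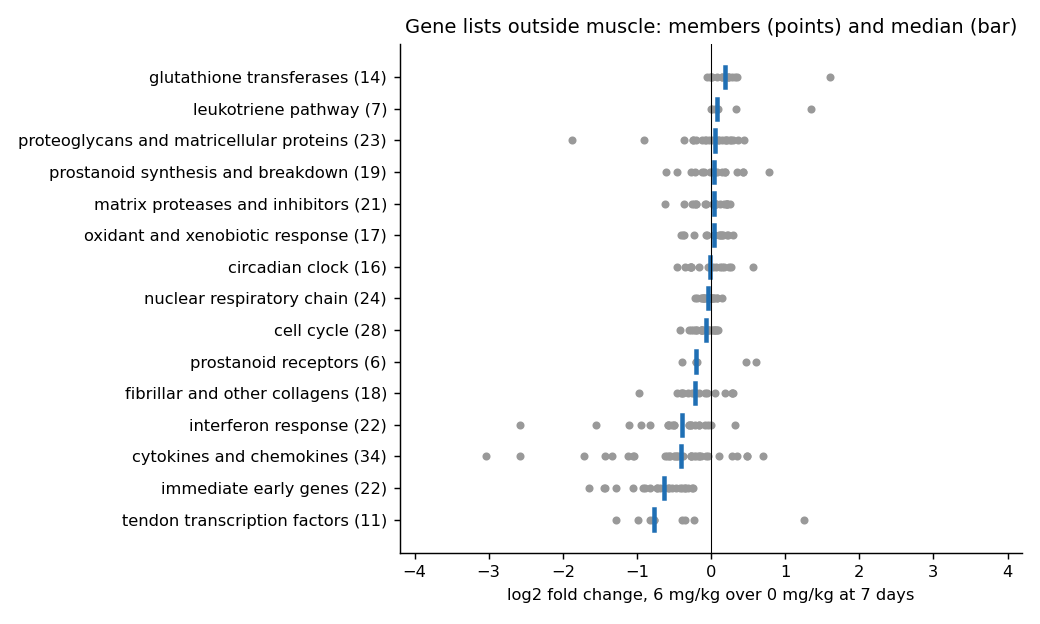
Log2 fold change of 7D 6 mg/kg over 7D 0 mg/kg tendons for the members (grey points) and the median (blue bars) of 15 gene lists outside muscle, with the number of genes tested in parentheses. Eya1, at -6.93 with 0 counts at 6 mg/kg, lies outside the axis, and its value depends on the model and is no measure of size. The immediate early genes are all below 0, and the prostanoid lists lie around 0.

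No gene rose past the adjusted threshold. Among genes of at least 10 CPM with an unadjusted p under 0.05 and no overlap between the groups, Retsat had the highest value outside the muscle list. Retsat, a retinol saturase, was at 104, 132, 110, 84.9 and 115 CPM at 0 mg/kg and at 352, 160 and 207 CPM at 6 mg/kg (log2 fold change 1.14, SE 0.34, adjusted p = 0.241, edgeR). Its groups did not overlap, and the 2 mg/kg group had a mean of 181 CPM. Cdo1, which breaks down cysteine, was at 34.2 to 106 CPM and at 204, 121 and 110 CPM. Enpp2, the enzyme that makes lysophosphatidic acid, was at 31.0 to 44.8 CPM and at 67.6, 49.97 and 61.0 CPM, and was higher again at 2 mg/kg, with a mean of 116 CPM. Retsat and Cdo1 are also expressed in fat, whose markers were above 0 in the same tendons, and the part of fat in these values was not tested.

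The 2 doses of the inhibitor were compared directly at 7 days. Of 12558 genes, 0 were called in either direction (0%) between 6 and 2 mg/kg in edgeR, where the smallest adjusted p was 0.0805, and 453 were higher and 544 lower (4.33%) at an unadjusted p under 0.05. Over the muscle list, the median log2 difference was 0.06, and Myh4 was at 4.49 ± 1.16 CPM with the higher dose and 2.32 ± 1.06 CPM (n = 4) with the lower, with a difference of 0.94 and a 95% interval of -1.21 to 3.09. The comparison of 2 with 0 mg/kg, which shares its vehicle tendons with that of 6 mg/kg, called 182 genes lower (1.45%), of which 96 were on the muscle list, where the median was -4.04, and 86 were outside it. It also called 114 genes higher (0.908%), all outside the muscle list, where 6 against 0 mg/kg gave 9 lower and 0 higher. For immediate early genes, the median was -0.54 for 6 against 2 mg/kg, with 20 of 22 below 0 and 6 at an unadjusted p under 0.05, and -0.14 for 2 against 0 mg/kg.

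The same dose was compared with its vehicle at 21 days, where 0 genes were called in either direction (0%) in edgeR, 408 were higher and 402 lower at an unadjusted p under 0.05, and the muscle list had a median of 0.33. A term for the change in effect from 7 to 21 days called 30 genes (0.239%), all lower at 7 days relative to 21 days. Of these, 27 were on the muscle list, and the other 3 were Kcnc4, AABR07052585.2 and LOC298139. Myh4 had a difference between the time points of -8.24 (adjusted p = 0.0331, edgeR). The call rested on single tendons: it was lost without any one of the 7D 6 mg/kg tendons, and without 7D 0 mg/kg replicate 1, 2 or 4, where 0 genes were called. It was also lost without replicate 1, 2 or 4 of 21D 6 mg/kg and without replicate 3 or 4 of 21D 0 mg/kg, and the count was 51 to 69 without replicate 3 or 5 of 21D 6 mg/kg or replicate 2 or 5 of 21D 0 mg/kg. For immediate early genes the median was -0.10 at 21 days, and for Ier2 the difference between the time points did not pass the test.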

How the data were processed

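RNA sequencing counts of plantaris tendons were used. The authors trimmed adapters with fastp, aligned reads to rn6 with STAR and counted those in Ensembl exons. They deposited raw counts per gene, and the strand setting is not given in the sources used here. Their fold changes and p-values were also deposited and were not used. The width of each gene in bases was taken as the authors list it. Groups followed the labels.

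The model was edgeR 4.0.16 in R 4.3.3. A gene entered when any of the 7 groups averaged 3 CPM or more, which kept 12558 of 13124 and dropped 566. A quasi-likelihood fit with TMM scaling and 1 mean per group used all 30 tendons, and p-values were adjusted over all genes by Benjamini-Hochberg. Totals are sums over the genes in the table. A floor of 3 counts was 0.0601 to 0.242 CPM at 6 mg/kg and 0.078 to 0.0952 CPM at 0 mg/kg. Intervals of ratios are exact Poisson at 95% and cover counting error only. No 2 tendons of a group agreed within sampling noise.

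Members and gene lists were chosen with earlier results of these data known. Named genes were the 2 of smallest p per muscle role group and per other list, every prostanoid gene tested, every call outside the muscle list, the 6 largest rises and falls there (unadjusted p under 0.05, no overlap, at least 10 CPM), and the 2 most abundant markers per cell type. Others were named after their values were seen, and some genes that the rule names are not reported here. Promoters were the first start listed per symbol among 33469 RefSeq starts. Alternatives were other scalings, filters and fits, DESeq2 1.42.0, limma 3.58.1, a replicate block, the muscle share as covariate, and each tendon left out. The steps were tested on simulated data.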

Additional observations from a re-analysis of the deposited data

Results flagged for a closer look

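In 7 genes, 1 tendon of the 7D 0 mg/kg group lay far from the other 4, in a check that chance meets in about 1 in 20 groups, over 110 named genes. Replicate 3 was high in Cxcl11 (49.9 CPM), Cxcl10 (124 CPM), Isg15 (90.3 CPM) and Plk1 (13.2 CPM), of which the first 3 are induced by interferon. Replicate 1 was high in Pla2g2a (955 CPM) and RGD1304963 (4.99 CPM), and replicate 5 in Chad (29.6 CPM).

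The log2 fold change of 6 against 0 mg/kg differed between 7 and 21 days, by an edgeR test of the difference itself, for 18 named genes. Of the filament genes, the difference (7 minus 21 days) was -8.24 for Myh4, -7.89 for Myl1, -7.57 for Acta1, -7.29 for Nrap and -7.45 for Tnnc2. Of the Z-disc and costamere genes, it was -7.47 for Csrp3 and -6.64 for Ankrd23. For genes of calcium handling and the nerve contact it was -8.24 for Trdn, -8.7 for Sln and -7.27 for Chrnd. For the remaining muscle genes it was -8.14 for Ampd1, -7.76 for Cox6a2, -9.36 for Igfn1, -7.67 for Myf6 and -7.05 for Eef1a2. Outside the list it was -8.2 for Kcnc4, -7.88 for AABR07052585.2 and -8.25 for LOC298139. Sln, Chrnd, Igfn1, Myf6, LOC298139 and Kcnc4 had at most 3 counts in each 6 mg/kg tendon of day 7, so their values depend on the model and are no measure of size.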

How the results depend on the processing

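The 49 lower genes (40 on the muscle list, 9 outside) and 0 higher genes were recounted under other settings. With only the 2 groups in the fit there were 102 lower (73 and 29) and 1 higher, and with only the 7-day tendons 158 lower (114 and 44). DESeq2 called 192 lower (122 and 70) and 2 higher, the likelihood ratio test 158 (109 and 49), and limma-trend 76 (61 and 15). With the muscle share as a covariate there were 100 lower (65 and 35) and 38 higher, and the median of the muscle list moved from -4.03 to -1.13. The share is computed from the listed genes themselves. A filter of 10 CPM left 4 calls outside the muscle list, and removing the list before the fit, an alternative chosen after seeing the data, left 0. Other scalings, no filter and robust estimation moved no count by over 1.5 times. Leaving out 1 tendon gave 0 to 60 lower genes, 0 to 49 on the muscle list, 0 to 11 outside it and 0 to 1 higher, with 0 lower without any one 6 mg/kg tendon. Leaving out 1 tendon gave 0 to 3 calls for 6 against 2 mg/kg and 0 to 69 for the difference between time points. No named gene changed sign once called. The causes of these changes were not tested.

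Replicate numbers are shared by the doses. Deviations from the group means correlated at 0.101, 0.113 and 0.042 between these doses for replicates 1, 4 and 5. Replicates 1 and 4 at 6 mg/kg correlated best with the vehicle tendon of the same number. Their next highest values were 0.0695 and 0.0568. Replicate 5 at 6 mg/kg correlated best with replicate 4 at 0 mg/kg (0.11). Correlations this few and weak cannot decide whether tendons of the same number share more than the number. A replicate block in all tendons gave 44 lower genes, 1 call for 6 against 2 mg/kg and 0 for the difference between time points, and with only the 2 groups it gave 148 lower (110 and 38) and 9 higher. Depth was lowest in replicate 4 at 6 mg/kg, and its effect on the counts of calls was not tested.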

Other observations

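Red cell and B cell genes separated the vehicle tendons from each other. Hbb, a globin chain of red cells, was at 7297, 8955, 646, 663 and 9463 CPM in 7D 0 mg/kg replicates 1 to 5 and at 8496, 15827 and 9669 CPM at 6 mg/kg. Replicates 3 and 4 were low. Cd79b, a part of the B cell receptor, was low in the same tendons, at 7.87, 7.87, 0.28, 0.61 and 6.01 CPM beside 13.5, 17.9 and 5.84 CPM. The B cell markers had a median log2 fold change of 1.45, the red cell markers 0.95, the mural markers -0.33, the Schwann cell markers 0.14 and the cartilage markers -0.63, and 0 genes of these lists were called.

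Cebpb, a factor of the acute phase and of fat cell formation, was named after its values were seen. It was at 34.2, 34.1, 51.1, 31.8 and 59.6 CPM at 0 mg/kg and at 23.1, 13.9 and 20.1 CPM at 6 mg/kg, with no overlap (log2 fold change -1.14, adjusted p = 0.0924, edgeR). The 2 mg/kg tendons had 32.4 ± 4.39 CPM (n = 4). Hacd4, an enzyme of long fatty acid synthesis, was at 8.74 to 16.0 CPM and at 19.1, 16.4 and 21.6 CPM, and also did not pass the test (adjusted p = 0.573, edgeR).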
